A study of Mus musculus with 17 samples.

Results

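Cluster 3 was 1 of the 9 cell clusters into which the authors divided their single-cell RNA sequencing (scRNA-seq) of mouse brain, and it held cells with high Apoe, Spp1, Gpnmb, Apoc1, Fabp5, Abca1 and C1qc. Its members were taken as all 26624 genes with a usable symbol among the 26650 listed, read from 2 of the 18 columns of the deposited table, the mean of each gene over the cluster 3 cells of the 6-OHDA library and of the 6-OHDA+NDST3 library. The other 8 clusters were used only for comparison. Of the 26624 genes, 6668 were detected in cluster 3, which here means a mean above 0.1 in at least 1 library.

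The mice were female wild-type ICR animals, 8 weeks old at surgery, and every group analysed here was of that strain and genotype. In the 6-OHDA group the dopamine neuron toxin 6-hydroxydopamine was injected into the substantia nigra on 1 side, and in the 6-OHDA+NDST3 group an adeno-associated virus carrying human NDST3 under the CMV promoter followed 5 days later in the same place, in a volume of 2 µl. The study's methods give saline, not an empty virus, to the lesioned mice without NDST3, so the virus and NDST3 cannot be told apart here, and no source ties a library to the number of mice behind it. Each scRNA-seq group was 1 library, the sham library of scRNA-seq was not analysed here, and sham samples entered through bulk RNA-seq (2 sham, 1 6-OHDA and 2 6-OHDA+NDST3 libraries), H3K27ac CUT&RUN and ATAC-seq.

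Macrophages and microglia that take up myelin and dead cells must break down, store or export the cholesterol and fatty acids they swallow. Cells in this state are known for high apolipoprotein E, osteopontin (Spp1), the lysosomal glycoprotein GPNMB, fatty acid-binding proteins, the cholesterol exporter ABCA1 and many cathepsins, and they are found around demyelinated lesions, amyloid plaques and degenerating tracts. The same cells can present protein fragments to T cells on MHC class II molecules, a programme switched on by interferon-γ through the co-activator CIITA.

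All values of cluster 3 are means over cells of the natural log of 1 plus the UMI count per 10000 UMIs of the cell (ln units, with a UMI standing for 1 captured RNA molecule). They are not divided by gene length, because each molecule is counted once at its 3′ end. Differences between libraries or clusters are differences of such means. With 1 library per group there is no replicate error and no test, the number of cells and their depth are unknown, and a mean cannot separate more cells with a gene from more of its RNA per cell. The number of genes above 0 in cluster 3 was 21716 in the 6-OHDA library and 21270 in the 6-OHDA+NDST3 library, the highest or second highest of the 9 clusters. Clusters 4 and 9 had fewer genes above 0 in the 6-OHDA library (12914 and 11238) than in the 6-OHDA+NDST3 library (17622 and 16712).

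The label of lipid-laden macrophages and microglia was checked against marker genes. All 7 of its markers were higher in cluster 3 than in any other cluster in both libraries, although the clusters were built from the same genes, so that this is a description. Lipid itself was not measured. Of 14 markers of homeostatic microglia, 13 were detected in cluster 3, and 13 of the 14 lay below cluster 6 in both libraries. The exception was Fcrls, with 1.44 against 1.34 in the 6-OHDA library and 1.00 against 1.02 in the 6-OHDA+NDST3 library. The purinergic receptor P2ry12 had a mean of 0.43 and 0.47 in cluster 3 and 1.86 and 1.74 in cluster 6, in the 6-OHDA and the 6-OHDA+NDST3 library respectively. Tmem119 had 0.32 and 0.46 in cluster 3 and 1.53 in both libraries of cluster 6.

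Of 12 blood monocyte markers only Lyz2, the macrophage lysozyme that many myeloid cells make, was detected in cluster 3. Ccr2, the receptor that guides monocytes out of the blood, had 0.04 and 0.05. Of 12 markers of border-associated macrophages, which line vessels and meninges, 5 were detected, led by Dab2 (0.58 and 0.61) and Ms4a7 (0.39 and 0.47). The mannose receptor Mrc1 had 0.10 and 0.16. The study's name for the cluster was monocytes, from Mrc1, C1qc, Lyz2 and Sash1, and all 4 of these were highest in cluster 3. By these markers cluster 3 was macrophage- and microglia-like, and it is called cluster 3 below.

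Markers of other cell types were summed in cluster 3. The summed level of 10 T cell markers was 0.05 in the 6-OHDA library and 0.18 in the 6-OHDA+NDST3 library, that of 10 B cell markers 0.21 and 0.49, and that of 10 neuron markers 0.05 and 0.05. The 8 oligodendrocyte markers summed to 0.60 in both libraries, with Mbp, a major myelin protein, at 0.32 and 0.31. Larger sums were those of 8 endothelial markers (1.28 and 1.00), of 10 dendritic cell markers (1.22 and 1.18), of 12 neutrophil markers (1.01 and 0.97), nearly all from the receptor gene Csf3r (0.94 and 0.90), and of 6 erythroid markers (0.71 and 0.48). The sums of the dendritic, neutrophil and erythroid markers were higher in cluster 6 than in cluster 3 in both libraries.

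Over the 12247 genes above 0.1 in any cluster or library, the profile of cluster 3 was most like that of cluster 6 (Pearson r = 0.90 in the 6-OHDA and 0.92 in the 6-OHDA+NDST3 library), followed by cluster 1 (0.85 and 0.83) and cluster 8 (0.82 and 0.84). These are correlations across genes within a library, and they share the library. Against cluster 6, 184 genes were at least 0.5 higher in cluster 3 in both libraries and 143 were at least 0.5 lower.

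A gene was called leading where its mean in cluster 3 exceeded the highest of the other 8 clusters by at least 0.5 ln units in both libraries, which held for 19 genes, 0.0714% of the 26624. The last gene inside the limit was Ucp2, with a smaller lead of 0.52, and the first outside was Syngr1, with 0.495. In 8 of the 19, cluster 6 was the next highest in both libraries.

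Apoe, the main lipid carrier of the brain, was the most abundant transcript of cluster 3, with 6.44 in the 6-OHDA library and 6.22 in the 6-OHDA+NDST3 library. The next highest cluster was cluster 6, with 4.23 and 4.09. Apoc1, a small apolipoprotein encoded beside Apoe, had 2.41 and 1.94 in cluster 3 and led by 1.95 and 1.58. Apoc4, from the same gene cluster, was lower in level (0.72 and 0.71) but close to 0.05 in cluster 6.

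Spp1, the secreted phosphoprotein osteopontin, had 2.89 and 2.04 in cluster 3 and led by 2.10 and 1.55. Gpnmb, a membrane glycoprotein of lysosomes, had 1.53 and 1.49, against 0.14 and 0.13 in cluster 6. These 4 genes, Apoe, Apoc1, Spp1 and Gpnmb, were the ones that led by at least 1 ln unit in both libraries.

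Fabp5, which carries fatty acids inside the cell, had 1.82 and 1.70 in cluster 3 and 0.27 in both libraries of cluster 6. Npc2, the lysosomal protein that hands free cholesterol to the membrane, had 2.64 and 2.66. Abca1, which moves cholesterol out of the cell onto apolipoproteins, had 1.97 and 1.84. The lysosomal and endosomal genes among the 19 were Cd63 (2.72 and 2.56), Creg1 (1.78 and 1.63), Pld3 (1.18 and 1.05) and Cd68 (1.75 and 1.62).

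The remaining leading genes were Timp2, an inhibitor of matrix metalloproteinases (1.89 and 1.98), Sash1 (1.80 and 1.86), Dcstamp, known from the fusion of osteoclasts and macrophage giant cells (1.14 and 0.91), Aig1 (1.50 and 1.47), Igf1, a growth factor (0.78 and 0.57), Ssr4, part of the translocon complex of the endoplasmic reticulum (1.56 and 1.44), and Ucp2, a mitochondrial carrier (1.85 and 1.77). C1qc, among the markers of the label, was not leading, because cluster 6 was close behind (2.86 and 3.10 in cluster 3 against 2.76 and 2.84).

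**Figure D1:**
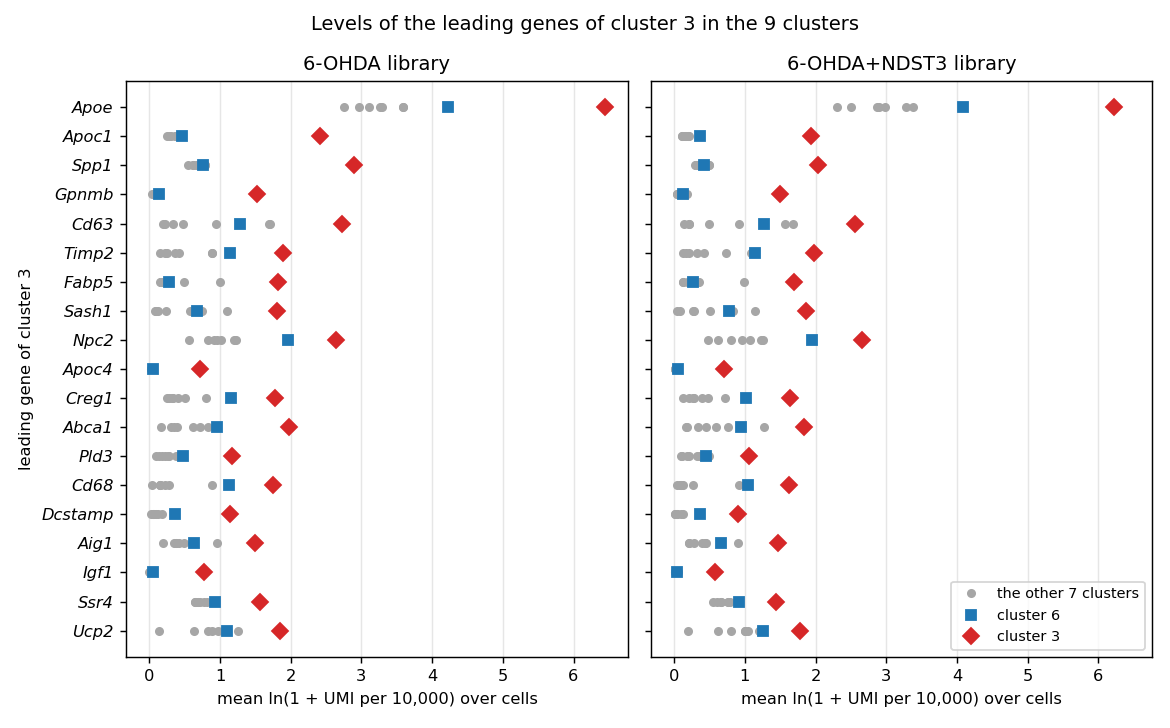
Mean level of each of the 19 leading genes in every cluster, in ln(1 + UMI per 10000), with the 6-OHDA library on the left and the 6-OHDA+NDST3 library on the right. Each diamond is cluster 3, each square cluster 6 and each circle 1 of the other 7 clusters. Apoe stands at 6.44 and 6.22 in cluster 3 and at 4.23 and 4.09 in cluster 6.

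Of 31 lipid-associated macrophage genes listed in the table, 20 were highest in cluster 3 in both libraries and 29 were above cluster 6 in both, with a median of 0.62 above cluster 6 in the 6-OHDA and 0.57 in the 6-OHDA+NDST3 library. The list holds the markers of the label Apoe, Spp1, Gpnmb, Apoc1 and Fabp5, and the leading genes Cd63, Cd68, Apoc4 and Igf1. These counts are therefore set in part by the choice of the label and of the leading genes. Lgals3, the lectin galectin-3, had 1.42 and 1.34 in cluster 3 and 0.15 and 0.20 in cluster 6. Plin2, a coat protein of lipid droplets, had 1.47 and 1.41 against 0.54 and 0.61. Lpl, which splits triglycerides, had 1.05 and 0.63 against 0.20 and 0.13.

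Of 39 lysosomal genes, 23 were highest in cluster 3 in both libraries. Ctsd, the aspartic protease cathepsin D, was the sixth most abundant transcript of cluster 3 in the 6-OHDA library, with 4.21, and had 3.85 in the 6-OHDA+NDST3 library. Of 18 glycolysis genes, 16 were above cluster 6 in both libraries, with Gapdh at 2.11 and 1.91 against 1.22 and 1.20. Of 21 cholesterol synthesis genes only 6 were above cluster 6 in both libraries, and their median level in cluster 3 was 0.06 in both.

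Immediate-early genes, which respond within minutes to stimulation and also to tissue dissociation, ran the other way. Of 18, 17 were lower in cluster 3 than in cluster 6 in both libraries, with a median of 0.78 below in the 6-OHDA and 0.69 below in the 6-OHDA+NDST3 library. Jun had 1.13 and 1.10 in cluster 3 and 3.33 and 3.16 in cluster 6. Transcription factors of the myeloid lineage were also often lower, 19 of 28 in both libraries, among them Mef2c at 1.17 in both libraries of cluster 3 against 2.09 and 2.05. Bhlhe40, a factor known from lipid-handling macrophages, was an exception with 0.55 and 0.52 against 0.13 and 0.14.

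The question of the scRNA-seq comparison was how the lesioned brain with NDST3 differed from the lesioned brain without it. In cluster 3 most genes lay close to the line of equal level, and the median difference of the 6668 detected genes, 6-OHDA+NDST3 minus 6-OHDA, was 0.0039. A difference of at least 0.25 ln units was taken as past the size limit, which 27 genes (0.405%) were in the higher direction and 23 (0.345%) in the lower. Of the 27 genes higher with NDST3, 7 were in the MHC class II list and 9 in the class I list. Of the 23 lower, 5 were in the lipid-associated list, and 2 of these 5, Ctsd and Ctsl, were also in the lysosomal list.

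**Figure D2:**
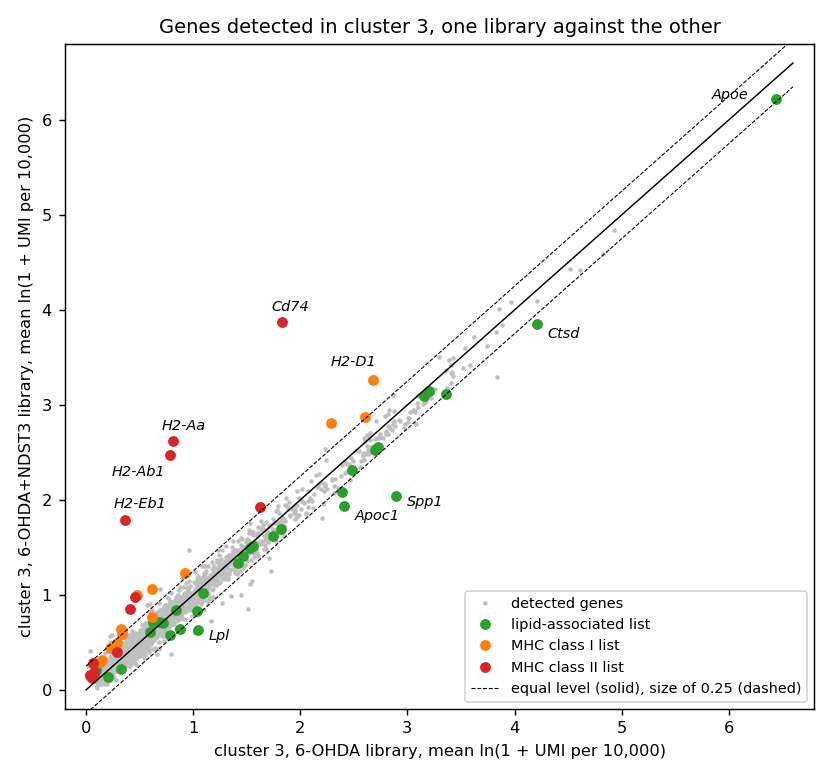
Mean level of each of the 6668 genes detected in cluster 3, with the 6-OHDA library on the horizontal and the 6-OHDA+NDST3 library on the vertical axis, in ln(1 + UMI per 10000). The solid line marks equal levels and the dashed lines a difference of 0.25. Cd74, H2-Aa, H2-Ab1 and H2-Eb1 lie far above the line, at 3.87 against 1.83 for Cd74, and Spp1 lies below it, at 2.04 against 2.89.

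The largest differences of all detected genes were those of 4 MHC class II genes, Cd74, H2-Aa, H2-Ab1 and H2-Eb1. Cd74, the invariant chain that escorts class II molecules to the endosome, had 1.83 in the 6-OHDA library and 3.87 in the 6-OHDA+NDST3 library, a difference of 2.04, and ranked 182 among all genes of the cluster in the former and 9 in the latter. H2-Aa, the class II A alpha chain, had 0.81 and 2.62 and a difference of 1.81. H2-Ab1, its beta partner, had 0.79 and 2.47 and a difference of 1.69. H2-Eb1, the E beta chain, had 0.36 and 1.79 and a difference of 1.43.

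Genes that load or control class II molecules differed less. H2-DMa and H2-DMb1, which exchange peptides in the class II groove, had 0.46 and 0.98, and 0.41 and 0.85, differences of 0.53 and 0.45. Ciita, the class II co-activator, had 0.04 and 0.15. The co-stimulatory ligand Cd86 had 1.63 and 1.93, Cd80 had 0.29 and 0.40, and Cd40 had 0.06 and 0.12. All 13 genes of the class II list were higher in the 6-OHDA+NDST3 library, 7 of them past the size limit, and their summed level was 6.86 and 15.8. The list includes Ciita, Cd86, Cd80 and Cd40, which are not class II genes themselves.

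MHC class I genes, which show peptides made inside the cell, were higher as well. All 14 genes of the class I list, which also holds B2m, Psmb9 and Tap1, were higher in the 6-OHDA+NDST3 library. Of these, 9 were past the size limit, and the median difference was 0.28. H2-D1 had 2.68 and 3.26, H2-K1 2.29 and 2.81, H2-Q7 0.48 and 1.00 and H2-T23 0.61 and 1.06. Their light chain B2m had 2.60 and 2.88. The immunoproteasome subunits Psmb8 and Psmb9 had 0.93 and 1.23, and 0.34 and 0.62. H2-D1, H2-K1, H2-Q4, H2-Q6 and H2-Q7 are near-identical in parts, so the split of reads between them is uncertain.

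The stretches before the start sites of some of these genes are shown because the genes moved together and because class II and class I promoters are known to share a control element, the X and Y boxes, to which RFX and NF-Y bind. The 150 bases before the start are given 5′ to 3′ on the strand of the gene, from RefSeq windows of build GRCm38.p6, with the letters that matched a searched motif in capitals. The motifs were the Y box CTGATTGG, whose reverse complement contains the CCAAT box, the X box, shown by the first run of capitals of H2-Eb1 with any base allowed at its sixth letter, CACGTG, the core of the lysosomal CLEAR element, and the core of the interferon-stimulated response element, each on both strands. H2-Aa, H2-Eb1 and H2-D1 are from the genes higher with NDST3 and Spp1 and Ctsd from those lower. The stretches lie at chr17:34287824-34287973 (minus strand), chr17:34305717-34305866 (plus), chr17:35262944-35263093 (plus), chr5:104434961-104435110 (plus, 1 of 2 start sites of the gene) and chr7:142387828-142387977 (minus).
H2-Aa: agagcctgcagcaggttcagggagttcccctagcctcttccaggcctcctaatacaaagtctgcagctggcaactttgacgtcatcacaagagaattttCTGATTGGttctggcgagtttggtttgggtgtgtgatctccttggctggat
H2-Eb1: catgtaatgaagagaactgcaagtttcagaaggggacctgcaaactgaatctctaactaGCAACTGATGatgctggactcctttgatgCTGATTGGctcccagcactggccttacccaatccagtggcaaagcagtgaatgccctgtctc
H2-D1: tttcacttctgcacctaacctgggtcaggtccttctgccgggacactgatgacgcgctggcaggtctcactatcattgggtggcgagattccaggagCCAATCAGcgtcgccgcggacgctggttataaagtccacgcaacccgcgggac
Spp1: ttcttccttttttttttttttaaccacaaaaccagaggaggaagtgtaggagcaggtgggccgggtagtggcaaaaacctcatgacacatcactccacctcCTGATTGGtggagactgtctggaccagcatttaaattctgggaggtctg
Ctsd: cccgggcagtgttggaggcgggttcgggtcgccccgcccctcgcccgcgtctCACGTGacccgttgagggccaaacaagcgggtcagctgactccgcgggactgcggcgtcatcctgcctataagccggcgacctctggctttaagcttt

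In the windows of 250 bases before to 50 after the start, the Y box began 51 bases before the start of H2-Aa, 62 before that of H2-Eb1 and, on the other strand, 53 before that of H2-D1. H2-Eb1 also held the searched X box string, 91 bases before its start. That string was in 0.19% of all windows. Variants of the box, which it would miss, were not searched for, so a gene without the string may still have an X box. Of the 27 genes past the size limit in the higher direction, 18 had a window and 8 of these held the Y box, namely H2-Aa, H2-D1, H2-Eb1, H2-K1, H2-Q6, H2-Q7, H2-T23 and Psmb9. The Y box was in 42.9% of the windows of these 18 genes and in 4.10% of all 32851 windows. All 8 holders were in the class II or class I list, and the motif was chosen because such promoters are known to hold it. The contrast with all windows was thus set beforehand and says nothing about NDST3. Of the 23 genes in the lower direction, 17 had a window and 1 held the Y box, Spp1, 49 bases before its start. CACGTG was in 12 of the 29 lysosomal genes with a window and in 35.3% of their windows, against 7.15% of all windows. The element is known from lysosomal genes, so this contrast too was set beforehand by the choice of the list. Among the 16 leading genes with a window, CACGTG was in 1, Abca1. The core of the interferon-stimulated response element was in 2 of the 18 higher genes, B2m and H2-T23, and in 2 of the 17 lower genes, Cxcl14 and Spp1. It was in 9.52% of the windows of the higher genes, 8.0% of those of the lower genes and 3.44% of all windows. Several of the class I windows come from near-identical gene copies and are not independent.

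Among the other genes higher with NDST3 were Ly6e, a membrane protein induced by interferon (0.96 and 1.47), and Lgals3bp, a secreted galectin-binding protein (0.69 and 1.06). Acod1, the enzyme that makes itaconate in activated macrophages, had 0.25 and 0.57. The chemokine Ccl5 had 0.23 and 0.56 and Ccl4 had 2.23 and 2.54. Of 17 detected genes of an interferon response list, 17 were higher in the 6-OHDA+NDST3 library, with a median difference of 0.10. The complement genes C1qa, C1qb and C1qc were higher by 0.16, 0.21 and 0.24, none of them past the size limit.

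The largest difference in the lower direction was that of Spp1, with 2.89 and 2.04, a difference of -0.85. Fgf13, a growth factor homologue that acts inside the cell, had 1.52 and 0.85. Lyz2 had 3.84 and 3.29 and Cxcl2, a chemokine for neutrophils, had 1.72 and 1.25. Apoc1 was lower by 0.47 and Fn1, which encodes the matrix protein fibronectin, had 1.17 and 0.72.

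The other genes of largest difference in that direction were Fcrls (1.44 and 1.00), Mpp7 (0.80 and 0.38), Lpl (1.05 and 0.63) and the chemokine Ccl6 (1.01 and 0.60). Ctsd was lower by 0.35 and Ctsl, another cathepsin, by 0.31. Olr1, a receptor for oxidised lipoprotein, had 0.66 and 0.38.

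Of the 30 detected lipid-associated genes, 25 were lower in the 6-OHDA+NDST3 library, with a median difference of -0.12. Of those, 5 were past the size limit, Spp1, Apoc1, Lpl, Ctsd and Ctsl. Of the 19 leading genes, 16 were lower, with a median of -0.13, and 2 were past the size limit, Spp1 and Apoc1. By comparison 2945 of all 6668 detected genes were lower. Of 15 detected cholesterol efflux genes 10 were lower and none was past the size limit, with Abca1 lower by 0.14 and Abcg1, a further cholesterol exporter, lower by 0.10.

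Gpnmb, Timp2, Sash1, Npc2, Apoc4, Aig1 and Ucp2 each differed by less than 0.10 between the libraries. Of 18 detected glycolysis genes 15 were lower and of 37 detected lysosomal genes 24 were lower, with medians of -0.06 and -0.03. All 8 detected cholesterol synthesis genes were higher, by a median of 0.03. Myeloid transcription factors (24 detected, median 0.03) and cytokines and growth factors (18 detected, median 0.01) had no gene past the size limit in either direction.

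**Figure D3:**
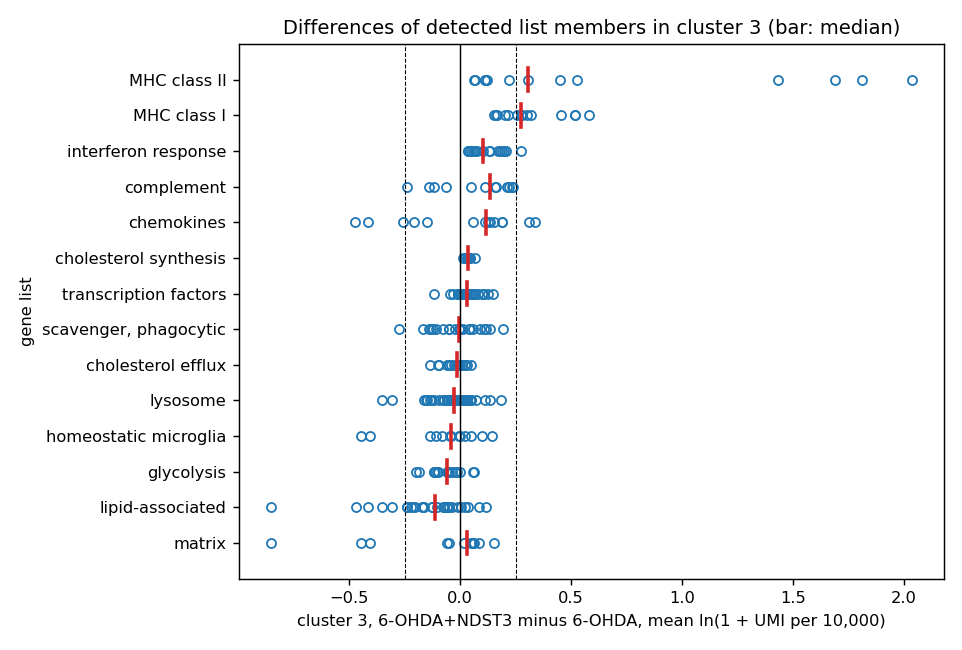
Difference between the libraries in cluster 3 (6-OHDA+NDST3 minus 6-OHDA, in ln units) for each detected member of 14 gene lists. Each circle is a gene, each red bar the median of the list, and the dashed lines mark 0.25 in either direction. The class II list has a median of 0.30 and the lipid-associated list one of -0.12.

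Part of these differences was shared with other clusters. Cd74 was higher in the 6-OHDA+NDST3 library in all 9 clusters, by 1.35 in cluster 6 and by 0.15 to 0.60 in the other 7. H2-Eb1 differed more in cluster 9 (1.81) than in cluster 3, where it was 1.43. All 13 genes of the class II list were also higher in clusters 6 and 8, against 5 in cluster 1. Their median difference was 0.40 in cluster 9 and 0.30 in cluster 3. All 14 genes of the class I list were also higher in clusters 4, 6 and 7, against 7 in cluster 1. All 22 interferon response genes listed were higher in clusters 3 and 6, and 10 to 18 of them in the others. Spp1 and Lyz2 were lower in all 9 clusters, Spp1 by 0.17 to 0.42 outside cluster 3 and Lyz2 by 0.15 to 0.46. Apoe was lower in all 9 too, by 0.22 in cluster 3 and by 0.14 to 0.47 elsewhere. Of the 31 lipid-associated genes listed, 5 were higher in cluster 3, 2 in cluster 2, 9 in cluster 6 and 14 in cluster 8, with 6 to 10 in the other clusters. The median difference of all 31 was -0.11 in cluster 3 and between -0.05 and -0.005 elsewhere. Their median level in the 6-OHDA library was 1.47 in cluster 3 and 0.15 to 0.61 elsewhere, which limits how far they could fall there. The part of RNA from outside the cells in these differences was not tested.

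All 27 genes higher and all 23 genes lower in cluster 3 had the same sign in cluster 6, where 14 and 6 of them were past the size limit. After each gene's median difference in the other 8 clusters was subtracted, 22 genes were past it in the higher and 16 in the lower direction, of which 18 and 16 were among the 27 and 23. Lyz2 was no longer past it, with -0.22. After the difference in cluster 6 was subtracted, an alternative added once the data had been seen, 11 and 9 were left, and H2-D1 (0.05) and H2-K1 (0.07) were among those lost.

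Some differences were larger in cluster 3 than in every other cluster, which could not be tested. H2-M2, a class I-like gene, had 0.03 and 0.41 in cluster 3 and differed by at most 0.03 elsewhere. Acod1 differed by 0.33 in cluster 3 and by at most 0.08 elsewhere. Fn1 was lower by 0.45 in cluster 3 and by at most 0.10 elsewhere, and Cxcl14, a chemokine, was lower by 0.26 in cluster 3 and by at most 0.03. A gene cannot fall by more than its level. In cluster 6, Cxcl14 had 0.04 and 0.02 and Fn1 had 0.12 and 0.09, so neither could fall there as far as in cluster 3. Fn1 was more abundant in cluster 7, with 1.78 and 1.88. These 4 genes were picked for this comparison after their values were seen.

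**Figure D4:**
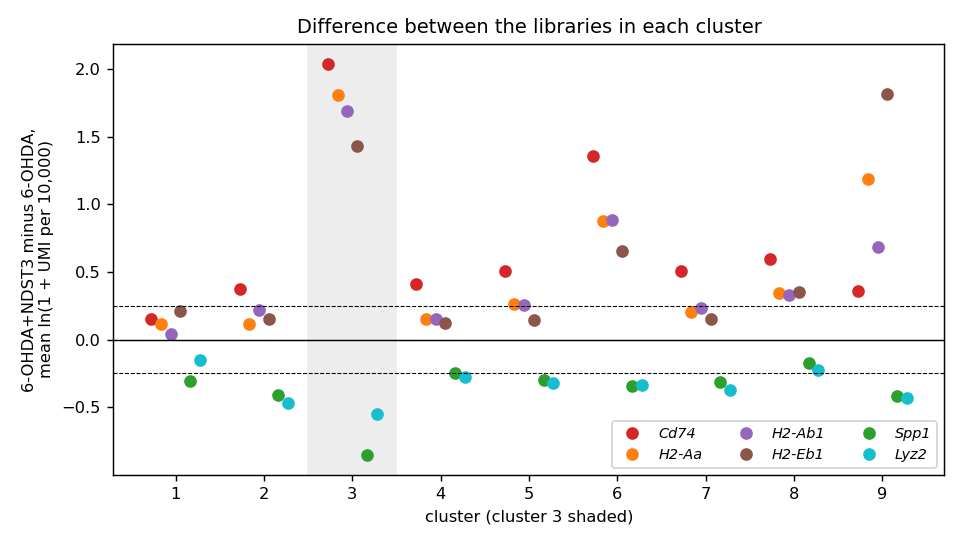
Difference between the libraries (6-OHDA+NDST3 minus 6-OHDA, in ln units) of 6 genes in each of the 9 clusters, with cluster 3 shaded and dashed lines at 0.25 in either direction. Cd74, H2-Aa, H2-Ab1 and H2-Eb1 are above 0 and Spp1 and Lyz2 below 0 in every cluster, and Cd74 reaches 2.04 in cluster 3 and 1.35 in cluster 6.

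The bulk RNA-seq libraries of brain gave a measure of the same genes that the choice of leading genes had not used, with 51003699 to 70533326 counts each. In such tissue, more cells of a type and more RNA per cell cannot be told apart. Levels are in CPM, the read count scaled to the size of the library, and differences are log2 fold changes from 1 edgeR quasi-likelihood fit of all 5 libraries, over 19300 genes, with p-values adjusted by Benjamini-Hochberg. The 6-OHDA group had 1 library, so its spread is assumed to be that of the other groups. Nothing says that the libraries of a group came from separate mice, so the p-values measure the spread between libraries.

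The first question was whether the leading genes of cluster 3 differed between lesioned and sham brain. Apoe had 3421 and 2056 CPM in sham, 20628 after 6-OHDA and 7361 and 10707 with NDST3. The 3 groups did not overlap. The log2 fold change of 6-OHDA over sham was 2.91 ± 0.40 (SE, edgeR adjusted p = 0.0093). Spp1 had 177 and 97.5 CPM in sham, 1838 in 6-OHDA and 746 and 772 in 6-OHDA+NDST3, with a fold change of 3.74 ± 0.35 over sham (edgeR adjusted p = 0.0082). Gpnmb differed between the 2 sham libraries (40.2 and 5.08 CPM) and had 824 in 6-OHDA and 213 and 434 in 6-OHDA+NDST3.

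Of the 19 leading genes, 14 rose after the lesion at an adjusted p below 0.05 and none fell, and the median log2 fold change of the 19 was 2.53. Over all genes, 18.8% were called higher and 17.1% lower in this comparison, with a median of -0.0025. All 7 markers of the label and all 32 lipid-associated genes rose, and the lists share Apoe, Spp1, Gpnmb, Apoc1 and Fabp5. The leading genes that did not pass, named after their values were seen, were Timp2 (0.13 ± 0.14), Sash1 (0.32 ± 0.10), Pld3 (0.11 ± 0.11), Aig1 (0.16 ± 0.13) and Dcstamp, which had 2 counts in 1 of the sham libraries (3.43 ± 1.13).

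These calls rested on both sham libraries, since none of the 19 passed without sham replicate 1 or without sham replicate 2, whereas 14 passed without either 6-OHDA+NDST3 library. DESeq2 called 15 and limma 16 of them higher. With the replicate number as a block, 8 passed. The share of all genes called was not computed for these alternatives. Of 21 cholesterol synthesis genes, 19 fell after the lesion and none rose. Markers of other cells moved in the same comparison. All 10 neuron markers fell. Of the others, 12 of 14 homeostatic microglia markers, 7 of 8 mural cell and fibroblast markers, 5 of 6 erythroid markers, 5 of 8 endothelial markers and 18 of 20 cell cycle genes rose, and their part in the values of the leading genes was not tested.

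In the 6-OHDA+NDST3 libraries, 17 of the 19 leading genes were lower than in the 6-OHDA library and 2 were higher, with a median log2 fold change of -1.17, and 2 fell at an adjusted p below 0.05, Cd63 (-1.17 ± 0.27, edgeR adjusted p = 0.0496) and Ssr4 (-0.62 ± 0.11, adjusted p = 0.038). In this comparison 6.59% of all genes were called lower and 9.06% higher. At a raw p below 0.05, 10 of the 19 were lower, beside 18.5% of all genes. DESeq2 called 9 and limma 1, and their shares over all genes were not computed. Apoe differed by -1.19 ± 0.40 (edgeR adjusted p = 0.098) and Spp1 by -1.28 ± 0.34 (adjusted p = 0.064).

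Without 6-OHDA+NDST3 replicate 1, without sham replicate 1 or without sham replicate 2, none of the 19 passed in that comparison, and without 6-OHDA+NDST3 replicate 2, 6 passed. Both comparisons share the single 6-OHDA library. In the second, 7 of 8 mural cell and fibroblast markers, 5 of 6 erythroid markers, 5 of 8 endothelial markers and 16 of 20 cell cycle genes fell and 7 of 10 neuron markers rose, and their part was not tested. Against sham, all 19 were above, with a median of 1.47, and edgeR called 0 of the 19, as it called 0% of all genes in the higher and 0% in the lower direction, where 1896 and 848 had a raw p below 0.05. At a raw p below 0.05 in edgeR, 13 of the 19 were higher against sham, beside 9.82% of all genes. DESeq2 called 10 and limma 0, and their shares over all genes were not computed, so these counts cannot be read as particular to the leading genes.

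The class II genes, higher in cluster 3 with NDST3, lay lower with it in bulk RNA-seq. Cd74 had 24.6 and 9.79 CPM in sham, 192 in 6-OHDA and 34.9 and 132 in 6-OHDA+NDST3. H2-Aa had 5.73 and 2.84 in sham, 55.0 in 6-OHDA and 8.55 and 30.5 in 6-OHDA+NDST3. The 2 libraries with NDST3 thus differed widely and both lay below the lesion. Of the 13 genes of the class II list, 10 rose after the lesion. Against 6-OHDA, 11 of the 13 were lower with NDST3, with a median log2 fold change of -1.20, and none passed in edgeR. At a raw p below 0.05, 7 were lower, beside 18.5% of all genes. DESeq2 called 3 and limma 1 lower, and their shares over all genes were not computed.

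Of the 27 genes higher in cluster 3 with NDST3, 25 were tested in bulk, and all 25 were lower in the 6-OHDA+NDST3 than in the 6-OHDA libraries, 4 of them past the threshold, where 6.59% of all genes passed it. Of the 23 genes lower in cluster 3, 22 were tested and 20 were lower in the same bulk comparison, with 3 called lower and 1 called higher, so both sets lay mostly below the lesion. The bulk libraries hold all cells of the tissue, and cluster 3 means are taken within the cluster. Mouse Ndst3 had 14.1 and 21.0 CPM in sham, 7.96 in 6-OHDA and 23.3 and 13.5 in 6-OHDA+NDST3, and 0.0027 and 0.0069 in cluster 3. The virus carried the human gene, so these values do not check the labels.

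**Figure D5:**
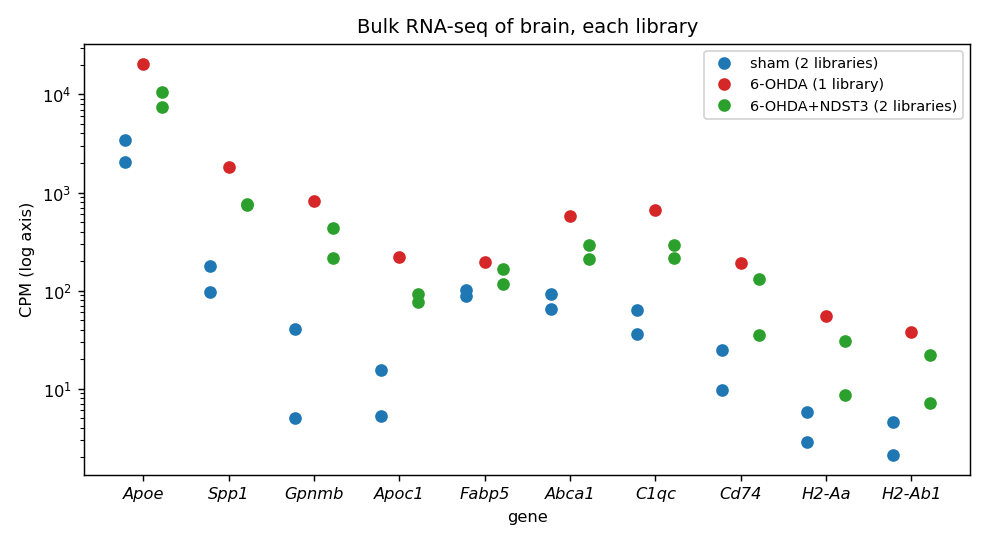
CPM, on a log axis, of the 7 markers of the label and of 3 class II genes in each of the 5 bulk RNA-seq libraries. Each point is a library, 2 of sham, 1 of 6-OHDA and 2 of 6-OHDA+NDST3, and the 2 NDST3 points of Spp1 (746 and 772) overlap. The 6-OHDA library is highest for every gene shown.

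At promoters, H3K27ac, a histone mark of active promoters and enhancers, and ATAC-seq, which measures open chromatin, had 1 column of tag signal per group, so no difference could be tested. Within 1 kb of their start, 9 of the 19 leading genes had 14 H3K27ac regions. Apoe had a signal of 12.1 in sham, 6.95 in 6-OHDA and 19.9 in 6-OHDA+NDST3. Cd63 had 13.4, 30.1 and 49.0 at its region 94 bases after the start. Npc2 had 9.46, 22.1 and 43.5 at its region 320 bases after the start. Other regions of Cd63 and Npc2 had 13.91, 23.35 and 34.41, and 11.15, 19.85 and 41.23. Timp2 (17.57, 12.45 and 21.91) and Fabp5 (28.65, 19.4 and 25.37) were lower in 6-OHDA than in sham, as Apoe was. Of the 14 regions, 10 were higher in 6-OHDA than in sham, beside 57.4% of all regions.

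All 14 regions were higher with NDST3 than with 6-OHDA alone, as were 96.3% of all 11424 regions, so that this direction was not particular to the leading genes. Their median ratio was 1.53 on signal plus 1, beside 1.31 over all regions. In ATAC-seq, 9 regions of 6 leading genes had a median ratio of 1.07, beside 1.08 over all regions. The Abca1 region, 48 bases before the start, had 149, 198 and 199. Of the class II list no gene had a region in either assay.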

How the data were processed

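Bulk RNA-seq, scRNA-seq, H3K27ac CUT&RUN and ATAC-seq of mouse brain were read from the tables the authors deposited, and the members, gene lists and tests were chosen with earlier results of these data known. The authors aligned RNA-seq reads to mm10 with HISAT2 and StringTie and deposited read counts per gene and FPKM values, and the 5 TPM columns of the same libraries were not used. The table of cluster means deposited by the authors names its columns mean counts, but the values fit the natural log of 1 plus UMIs per 10000, which the methods describe as made with Cell Ranger and Seurat after keeping cells with 200 to 8000 genes and at most 10% mitochondrial counts. No other step against doublets is stated. The 26 rows whose symbol had become a date were left out. Tag signal of CUT&RUN (2 libraries per group in 1 column) and ATAC-seq (1 per group) was deposited by the authors with no normalization stated, and its coordinates were not used because the start sites they imply differ from those of the stated mm10.

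Levels, differences and lists were computed from the scRNA-seq means with Python 3.11.15 and pandas 2.3.3, with a floor of 0.1, a size limit of 0.25 and a margin of 0.5 ln units. Counts were tested with edgeR 4.0.16 (filterByExpr, TMM, quasi-likelihood, Benjamini-Hochberg over all 19300 genes tested, threshold 0.05), and alternatives used DESeq2 1.42.0, and limma 3.58.1 for log2 of FPKM plus 1. On simulated counts the edgeR test of 6-OHDA against sham recovered 7% of 2-fold and 62.6% of 4-fold changes among 19141 genes. That of 6-OHDA+NDST3 against 6-OHDA recovered 12% and 61.6%. For each comparison only 100 of the 19141 genes were given a 2-fold and 99 a 4-fold change. In the bulk libraries edgeR called 18.8% of genes higher and 17.1% lower in 6-OHDA against sham. Recovery with so large a share of genes changed was not tested. The bulk comparisons were 6-OHDA against sham, 6-OHDA+NDST3 against 6-OHDA and 6-OHDA+NDST3 against sham, and other sizes, floors, margins, scalings, filters and left-out libraries were tried as alternatives. Named genes were the 20 of largest lead, the 10 of largest difference in each direction, and examples of each list, some of them chosen after their values were seen. Chromatin ratios were taken on signal plus 1. The values of 1 gene are not reported here.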

Additional observations from a re-analysis of the deposited data

Results flagged for a closer look

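Ccl4, a chemokine for monocytes and T cells, was past the size limit in opposite directions in different clusters, and the difference between the clusters was not tested. In cluster 3 it was higher in the 6-OHDA+NDST3 library, with 2.23 and 2.54 and a difference of 0.31. In cluster 2 it was lower, with 0.87 and 0.62 and a difference of -0.25, and in cluster 9 it was lower with 1.10 and 0.83 and a difference of -0.27. Cluster 6, where Ccl4 was most abundant (3.70 and 3.96), had a difference of 0.26, the same sign as cluster 3. Each value comes from 1 library per group.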

How the results depend on the processing

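In cluster 3 the count of genes past the size limit was 228 higher and 245 lower at a size of 0.1, 9 and 3 at 0.5, and 11 and 9 after the difference in cluster 6 was subtracted. Other floors, centring on the median of detected or of other-cluster values, and rescaled back-transformed means moved it by less than 1.5 times, and all 20 named genes kept their direction. Leading genes numbered 63 at a margin of 0.25, 4 at 1, 30 in the 6-OHDA library alone, 84 without cluster 6 and 12 on rescaled back-transformed means.

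In bulk RNA-seq, leading genes called higher in 6-OHDA against sham numbered 0 to 14 with 1 library left out and 8 with the replicate block, and 4 and 51 with the lists at margins of 1 and 0.25, of which the latter also had 1 called lower. Those called lower in 6-OHDA+NDST3 against 6-OHDA numbered 0 to 6 with 1 library left out, 0 with the replicate block, 0 with only the 2 groups compared, 1 with RLE size factors, 1 with no filter, 1 with limma, 9 with DESeq2, 7 at a fold change of 2 with raw p below 0.05, and 0 and 7 with the lists at margins of 1 and 0.25, of which the latter had 1 called higher. Those called higher in 6-OHDA+NDST3 against sham numbered 0 to 1 with 1 library left out, 10 with DESeq2 and 11 at a fold change of 2 with raw p below 0.05. For the refits in this paragraph the share of all genes called was not computed. The causes were not tested.

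The difference of sham replicate 1 minus 2 and that of 6-OHDA+NDST3 replicate 1 minus 2 had a correlation of -0.43 across the 19300 genes tested. Libraries of the same number thus did not deviate alike, and those of opposite number tended to. What they share was not tested. With the numbers crossed, an alternative added after seeing the data, 15, 10 and 12 leading genes were called in the 3 comparisons in the order above. The share of all genes called in that fit was not computed, so these counts cannot be read as particular to the leading genes. The log2 fold change of Timp2 in 6-OHDA+NDST3 against 6-OHDA turned to -0.031 with the replicate block and lay between -0.065 and 0.13 with 1 library left out, below 0 without 6-OHDA+NDST3 replicate 2. That of H2-Eb1 in 6-OHDA+NDST3 against sham lay between -0.25 and 2.17, below 0 without sham replicate 2 (-0.066) or 6-OHDA+NDST3 replicate 2.

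Depth and cell numbers behind the cluster means are unknown, each scRNA-seq group is 1 library, and the lesion group of bulk RNA-seq is 1 library, so values of single genes carry no replicate error in the former and a borrowed one in the latter.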

Other observations

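Growth factors and cytokines set cluster 3 apart from cluster 6 in both directions. Il1b, which encodes the inflammatory cytokine interleukin-1 beta, had 2.46 in the 6-OHDA library and 2.38 in the 6-OHDA+NDST3 library of cluster 3, against 1.24 and 1.47 in cluster 6. Its antagonist Il1rn had 0.67 and 0.66 against 0.09 and 0.10, and Vegfa, a factor for vessel growth, had 0.51 and 0.59 against 0.05 in both. Il1a (1.22 and 1.37 against 1.75 and 1.92) and Tnf (0.96 and 0.91 against 1.37 and 1.48) were lower in cluster 3 than in cluster 6.

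The iron store genes Fth1 and Ftl1 were among the 10 most abundant genes of cluster 3 in both libraries, Fth1 with 4.93 and 4.84 against 3.55 and 3.64 in cluster 6. Of 14 genes listed for alternatively activated macrophages, 5 were detected in cluster 3 and 11 were above cluster 6 in both libraries. Arg1, Retnla and Chil3, known from the same state, had means of at most 0.02 in cluster 3. The proliferation marker Mki67 had 0.10 and 0.11 and Top2a, needed for chromosome separation, had 0.04 in both. These are descriptions of 1 library per group, with no test.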
